A study of Mus musculus with 12 samples.

Results

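The SP2 to SP3 transition of CD4 single positive (SP) thymocytes, at which surface CD69 is lost, was described over 45037 of 45037 probe sets of the Affymetrix Mouse Genome 430 2.0 array. It rests on 6 of the 12 arrays of the study, 3 of SP2 cells and 3 of SP3 cells, and the 3 SP1 and 3 SP4 arrays enter as the stages on either side. All cells came from pooled thymi of C57BL/6 mice aged 6 to 8 weeks with no engineered allele or treatment, and all were sorted as CD4+CD8-CD25-NK1.1- cells. SP1 cells are Qa-2-6C10+CD69+, SP2 cells Qa-2-6C10-CD69+, SP3 cells Qa-2-6C10-CD69- and SP4 cells Qa-2+6C10-CD69-. Each array therefore holds RNA of a sorted population from several animals, and it cannot tell fewer cells of a type from less RNA per cell. Values below are normalized intensities in arbitrary units, given for replicates 1, 2 and 3 in that order, and fold changes are SP3 minus SP2 differences of log2(intensity + 16).

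CD4 SP thymocytes reach the medulla after positive selection with CD69 on their surface, since signals through the T cell receptor (TCR) induce it. CD69 binds the sphingosine 1-phosphate receptor S1PR1 and takes it off the surface, so that CD69+ cells are held in the thymus. As TCR signalling in the medulla subsides, thymocytes lose CD69, gain the transcription factor KLF2 and its target S1PR1, and become able to follow sphingosine 1-phosphate into the circulation.

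The sort itself was made on protein, and the mRNA of the marker that parts the subsets overlapped between them. The Cd69 probe set read 854, 1010.4 and 493 in SP2 and 662, 595 and 580.4 in SP3. Its groups overlapped, and replicate 3 was higher in SP3 (log2 fold change -0.29, SE 0.23, unadjusted p = 0.235 by limma with the replicate block and 0.387 without it). Cd4, the coreceptor all cells were sorted for, read 935, 846 and 541 in SP2 and 646, 1027 and 424 in SP3. Those groups overlapped as well. Il2ra, which encodes CD25 and was gated out, read 49.7, 46.4 and 61.6 in SP2 and 40.1, 45.4 and 42.1 in SP3, lower without overlap but not called (adjusted p = 0.865). Cd8a and Cd8b1, the chains of the other coreceptor that was gated out, were not at a floor and are given below.

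Between SP2 and SP3, Tnfrsf9, Rgs16, Ikzf2, Gpr83, Chl1, Ccr8 and Cd5, genes of costimulation, G protein signalling, transcription, contact, migration and TCR feedback, were lower by 0.74 to 2.42 on the log2 scale. The egress receptor genes S1pr1 and S1pr4 and the egress-stage genes Klf3 and Rflnb were higher by 0.77 to 1.61, and Cd8a, Cd8b1 and other genes of the double positive stage by 0.91 to 2.92. All of these passed the threshold on adjusted p only in the fit with the replicate as a block. Arrays of 1 replicate number belong to 1 named repeat of the study. Deviations of same-numbered SP2 and SP3 arrays from their subset means correlated between 0.511 and 0.818 over probe sets. For SP2 replicate 2 with SP3 replicate 1 the correlation was 0.401, and for SP2 replicate 1 with SP3 replicate 2 it was 0.197. Pairs of replicate 3 with another number lay between -0.704 and -0.515. Deviations from the mean of 3 arrays cancel out within a subset, which fixes part of these negative values. Within that limit, the deviations set replicate 3 apart more than they part replicates 1 and 2. Fitted without the replicate number, limma called 0 of 45037 probe sets at an adjusted p under 0.05, with 656 higher in SP3 (1.46%) and 703 lower (1.56%) at an unadjusted p under 0.05. With the replicate number as a block, 99 probe sets were called, and from here "called", "rose" and "fell" refer to this blocked fit. Of these, 59 fell, which is 0.131% of those tested, and name 42 genes, and 40 rose, which is 0.0888%, and name 26 genes. All 99 moved the same way in 3 of 3 pairs of arrays, which a call on these same pairs largely fixes. The SP2 and SP3 arrays did not overlap for 48 of the 59 and 31 of the 40. Among all probe sets, 3.52% were lower and 2.91% higher without overlap. A call on these same arrays favours such probe sets. How many were called turned on single arrays. Leaving out replicate 1, 2 or 3 in turn turned the 99 into 9, 33 or 207 for SP2 and into 13, 22 or 34 for SP3. The count was 42 and 202 when replicate 1 or replicate 3 of SP1 was left out, and 41 when replicate 3 of SP4 was. Every one of the 99 kept its sign in each of the 12 fits that left out 1 array. Their selection largely fixed this, and leaving out an SP1 or SP4 array does not alter the blocked fold change.

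Marker sums of 2 lists of other cells differed between the subsets without overlap and stand beside all that follows. The first was the double positive list. Of 19 measured markers of cortical double positive thymocytes, the CD4+CD8+ cells that precede the SP stage, 15 were above 0 and 9 had SP3 arrays all above SP2 arrays, with a median log2 fold change of 1.67 against 0.00167 over all genes. Over all genes, 3.3% had SP3 arrays all above SP2 arrays. Members of this list were chosen with earlier results of these data known, so the excess is not separate support. Their summed intensity was between 5908 and 6740 on the SP2 arrays and 20471, 13704 and 7571 on SP3 replicates 1, 2 and 3. SP3 exceeded SP2 by a ratio of 3.04 in replicate 1, 2.16 in replicate 2 and 1.28 in replicate 3. No defining marker was at 0, and the recombinase gene Rag1 read 299.5, 34.8 and 83.7 in SP2 and 2280.3, 1563 and 344 in SP3. In replicate 3, where that sum differed least, the median log2 difference was -0.82 for the 59 that fell, against -1.10 and -0.90 in replicates 1 and 2. For the 40 that rose it was 0.79, against 1.19 and 1.50. The calls used replicate 3 as well, so these medians are no separate test. With the mean log2 level of these markers on each array as a covariate beside the block, limma called 0 probe sets. Of the 59, all kept their sign, 45 had an unadjusted p under 0.05 and their median went from -0.97 to -0.61. Of the 31 probe sets that rose and whose genes are not on the marker list, all kept their sign. Of these, 21 had an unadjusted p under 0.05, and the median went from 1.15 to 0.64. The 59 and the 31 had been called on the same arrays, so the kept signs are not separate support. The second list, of activated or memory T cell markers, summed to 7159 to 8884 on the SP2 arrays and 10192 to 10345 on the SP3 arrays. Of its 17 measured genes, 12 were above 0 and 7 had SP3 arrays all above SP2 arrays, with a median of 0.47, or 0.29 by the mean of all probe sets of each gene. Its part in the results was not tested.

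**Figure D1:**
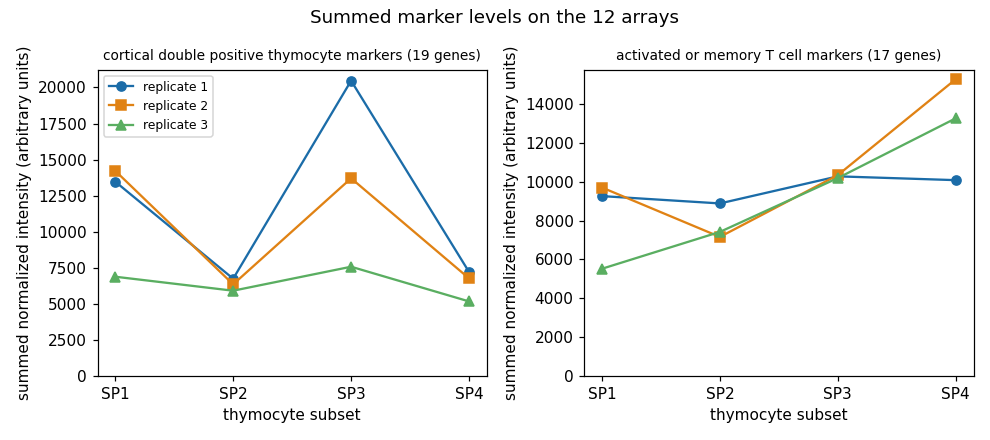
Summed normalized intensity (arbitrary units) of 19 double positive thymocyte markers (left) and 17 activated or memory T cell markers (right) on each of the 12 arrays, in subset order, with lines joining arrays of 1 replicate number. SP3 replicates 1 and 2 carried the highest double positive sums of any SP2 or SP3 array, at 20471 and 13704, while SP3 replicate 3 was at 7571.

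The largest fall of a named gene was that of Tnfrsf9, which encodes the costimulatory TNF receptor 4-1BB and is induced on T cells by antigen. Its brighter probe set read 864, 918 and 608 in SP2 and 188, 206 and 189 in SP3. The 3 SP3 arrays lay close together and far under every SP2 array (log2 fold change -1.93, SE 0.13, adjusted p = 0.000101 with the block in limma). The second probe set, at 432, 404 and 217 in SP2 and then 63.2, 68.1 and 27 in SP3, fell by 2.42 on the log2 scale, with the same adjusted p. Both remained called in each of 12 fits that left out 1 array, the highest adjusted p being 0.0034, and without the block the unadjusted p was 1.18e-06 and 9.68e-06. With the double positive covariate the fold changes were -1.71 and -2.44.

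Tnfsf11, which encodes the ligand RANKL through which SP thymocytes act on medullary epithelial cells, read 327, 457 and 919 in SP2 and 123, 189 and 666 in SP3. Replicate 3 was high in both subsets, so the groups overlapped although each pair fell (log2 fold change -0.99, SE 0.17, adjusted p = 0.0361). Tnfrsf4, which encodes OX40, read 919, 745 and 2186 in SP2 and 311, 471 and 941 in SP3. Tnfrsf18, which encodes GITR, read 1112, 807 and 1855 in SP2 and 444, 529 and 979.9 in SP3. Both were lower in every pair and neither was called, each with an adjusted p of 0.0708. Of 24 measured TNF receptors and ligands, 2 fell, 0 rose and 15 were below 0, with a median of -0.07. Tnfrsf25, which encodes death receptor 3, stood the other way at 117, 101 and 108 in SP2 and 153, 203 and 128 in SP3, with no overlap and an adjusted p of 0.331. By the brightest probe set, 0.17% of all genes fell and 0.11% rose. This list and those below were chosen with earlier results of these data known, so their counts of calls are not separate support.

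**Figure D2:**
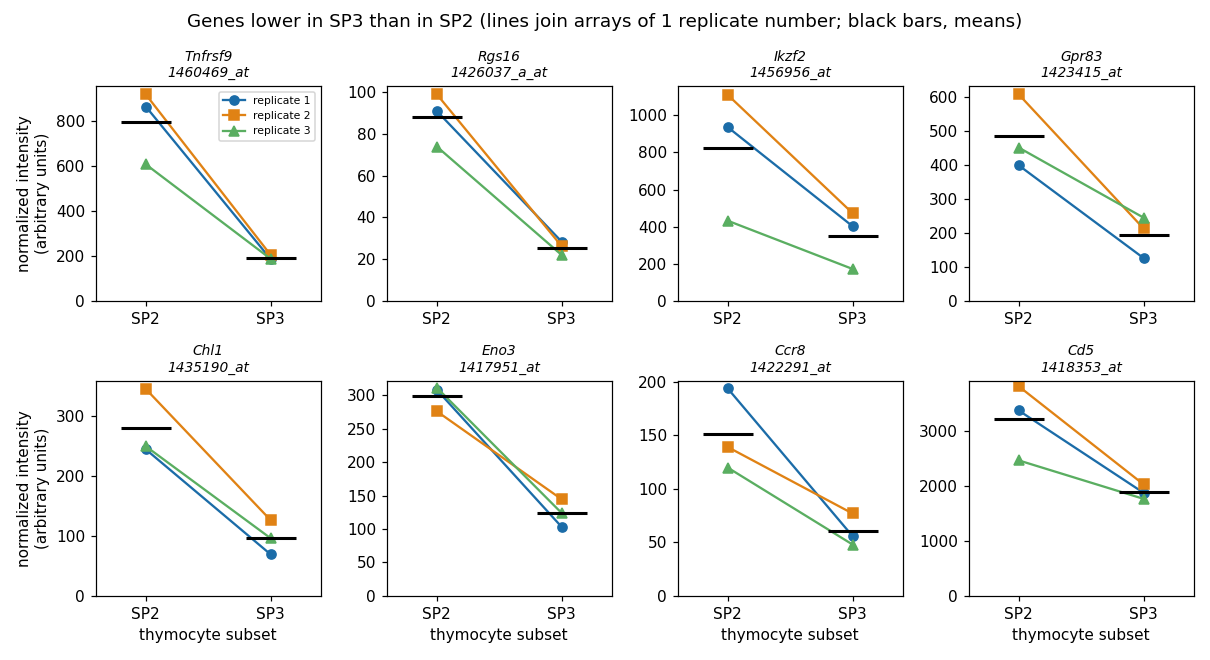
Normalized intensity (arbitrary units, axis from 0) of 8 genes that fell, 1 probe set each, with lines joining SP2 and SP3 arrays of 1 replicate number and black bars at the means of 3 arrays. Every line descends, and for Tnfrsf9 and Rgs16 the SP3 arrays lie under all SP2 arrays, while for Ikzf2 replicate 3 is low in both subsets.

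Rgs16 and Gpr83, of the G protein pathway, fell as well. Rgs16 encodes a GTPase-activating protein that cuts short signals from chemokine receptors. It read 90.8, 98.8 and 73.8 in SP2 and 28.5, 26.4 and 22.1 in SP3, a fall in every pair with no overlap (log2 fold change -1.31, SE 0.11, adjusted p = 0.000428). Its brighter probe set fell by 0.75 on the log2 scale (SE 0.12, adjusted p = 0.0311). Gpr83, a G protein-coupled receptor gene known from regulatory T cells, went from 399, 607 and 451 to 127, 214 and 246, with all SP3 arrays lower (log2 fold change -1.27, SE 0.18, adjusted p = 0.0162). Among 16 measured RGS genes and G protein regulators, 3 fell, 0 rose and 12 were below 0, and the median was -0.11. The shares of all genes were 0.17% that fell and 0.11% that rose.

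Several genes that fell, Ikzf2 and Trpm1 among them, have a probe set that kept its call without each of the 12 arrays. The promoters of 2 of these genes, Tnfrsf9 and Rgs16, are shown. They run from 250 bases before to 50 after an annotated start, from RefSeq on GRCm38.p6, 5′ to 3′ on the gene's strand. Capitals mark 2 motifs, on either strand: the AP-1 site TGANTCA, bound by factors that TCR signals induce, and the Krüppel-like factor type site CCNCACCC. Tnfrsf9 has 2 annotated starts, with windows at chr4:150919905-150920204 and chr4:150927749-150928048 on the plus strand, and the Rgs16 window is chr1:153740103-153740402, plus strand.
Tnfrsf9, upstream start: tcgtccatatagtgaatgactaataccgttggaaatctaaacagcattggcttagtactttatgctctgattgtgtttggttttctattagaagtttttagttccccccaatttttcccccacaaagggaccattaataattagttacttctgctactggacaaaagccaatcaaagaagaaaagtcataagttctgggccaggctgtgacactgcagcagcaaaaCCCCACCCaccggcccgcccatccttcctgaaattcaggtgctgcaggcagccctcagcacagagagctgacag
Tnfrsf9, downstream start: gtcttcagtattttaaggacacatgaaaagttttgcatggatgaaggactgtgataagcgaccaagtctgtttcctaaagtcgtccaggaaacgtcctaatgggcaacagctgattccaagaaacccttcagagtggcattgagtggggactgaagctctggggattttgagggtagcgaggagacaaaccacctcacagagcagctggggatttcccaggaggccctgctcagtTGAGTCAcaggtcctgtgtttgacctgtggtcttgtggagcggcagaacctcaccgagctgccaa
Rgs16: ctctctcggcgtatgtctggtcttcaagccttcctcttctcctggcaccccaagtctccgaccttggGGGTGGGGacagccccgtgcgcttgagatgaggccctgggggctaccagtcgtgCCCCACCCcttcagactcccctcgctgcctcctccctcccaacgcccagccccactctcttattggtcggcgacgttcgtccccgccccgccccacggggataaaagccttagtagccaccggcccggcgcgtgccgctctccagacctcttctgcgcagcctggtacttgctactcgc
The downstream Tnfrsf9 window holds 1 AP-1 match, from 15 to 9 bases before the start. The upstream window holds 1 Krüppel-like type match and Rgs16 holds 2. AP-1 matches are in 7.81% of all 32851 promoters and Krüppel-like type matches in 16.6%. Among genes that fell, 34 of the 42 had an entry, of which 2 genes (5.88%) held an AP-1 match and 10 (29.4%) a Krüppel-like type match in any window, against 8.97% and 18.4% of all 27025 genes. A match is a run of letters and not a measured binding site.

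Transcription factors that TCR signals induce moved unevenly. Ikzf2, which encodes Helios, a factor of strongly signalled and regulatory T cells, fell on 3 probe sets. Its brightest read 1409, 1738 and 1829 in SP2 and 646, 1025 and 672 in SP3 (log2 fold change -1.09, SE 0.14, adjusted p = 0.0103). On the probe set of largest fold, replicate 3 was far under replicates 1 and 2 in both subsets, at 935, 1108 and 433 in SP2 and then 403, 473 and 174 in SP3. The fall was nearly equal in the 3 pairs nevertheless (log2 fold change -1.21, SE 0.11, adjusted p = 0.00111), and this probe set kept its call without each of the 12 arrays. Nr4a3, an orphan nuclear receptor gene, read 562, 721 and 2504 in SP2 and 183, 222 and 2191 in SP3, a wide difference in replicates 1 and 2 and a small one in replicate 3, and was not called (log2 fold change -1.12, adjusted p = 0.0826). Nr4a1, its relative that encodes Nur77, was lower in each pair at 2183, 2478 and 2925 in SP2 and 1440.3, 1496 and 2547 in SP3, with an adjusted p of 0.229. Of 26 such NR4A, EGR, AP-1 and related genes, 1 fell, 0 rose and 19 were below 0, with a median of -0.17. Over all genes 0.17% fell and 0.11% rose.

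The inhibitors that tune TCR signalling were lower in part. Cd5, whose surface level tracks the strength of TCR signals, read 3379.9, 3821 and 2470.3 in SP2 and 1879.6, 2033 and 1769 in SP3. All SP3 arrays were under all SP2 arrays (log2 fold change -0.74, SE 0.13, adjusted p = 0.0392), but the call held in only 3 of the 12 fits with 1 array left out. Cd6, its neighbour in the scavenger receptor family, read 1370.2, 1622 and 1475 in SP2 and 868, 966 and 1109 in SP3, also without overlap, and missed the threshold at an adjusted p of 0.0708. Dusp5, which encodes a MAP kinase phosphatase, read 1639, 2120.3 and 1818 in SP2 and 976, 1060.4 and 1324 in SP3 (adjusted p = 0.154). Its relative Dusp4 read 232, 334 and 321 in SP2 and 158, 183 and 247 in SP3 (adjusted p = 0.101), so that all 3 of these genes were lower in every pair without a call. Over 26 measured feedback inhibitors, a list chosen with earlier results of these data known, 1 fell and 0 rose. Without the block, 6 were lower and 0 higher at an unadjusted p under 0.05. Among all genes 1.65% were lower and 1.76% higher. The median was -0.17. NF-κB genes gave 0 calls among 20, although Relb, Nfkb2 and Rel had SP3 arrays all under SP2 arrays, as 3.66% of all genes did. Rel, at 201, 223 and 214 in SP2 and 101, 81.8 and 179 in SP3, had the widest difference of them (log2 fold change -0.81, SE 0.19, adjusted p = 0.145).

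Genes of the regulatory T cell lineage, whose CD25+ members the gate had removed, gave 3 falls and 0 rises among 18 measured, with 12 below 0 and a median of -0.25. The 3 are Tnfrsf9, Ikzf2 and Gpr83, which also stand on other lists. Over all genes 0.17% fell and 0.11% rose. Izumo1r, which encodes folate receptor 4, was lower without overlap at 846, 556 and 732 in SP2 and 341, 427 and 391 in SP3 and was not called (adjusted p = 0.149). Nrp1, the neuropilin gene often used to mark thymus-derived regulatory cells, stood the other way at 77.3, 41.4 and 49.9 in SP2 and 273, 163 and 102 in SP3, with an adjusted p of 0.0708. The difference was widest in replicates 1 and 2, the arrays with the highest double positive sums.

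Receptors for migration and contact were among the genes that fell furthest. Chl1, a cell adhesion molecule of the L1 family, read 244, 344 and 249 in SP2 and 69.1, 126 and 95.9 in SP3 (log2 fold change -1.40, SE 0.19, adjusted p = 0.0145). The second Chl1 probe set fell by 1.11 on the log2 scale. Of 4 Chl1 probe sets, 3 were lower in SP3 and these 2 were called. Ccr8, a chemokine receptor gene, went from 194, 139 and 119.9 to 55.8, 77 and 48, with no overlap (log2 fold change -1.12, SE 0.16, adjusted p = 0.0165). It was the 1 called gene of 18 chemokine receptors. Ccr7, the receptor that draws thymocytes into the medulla, read 2134, 2837 and 3082 in SP2 and 1505, 1535 and 2497 in SP3, lower in 3 of 3 pairs with overlapping groups (adjusted p = 0.218). Cxcr4, which holds immature thymocytes in the cortex, read 564, 666 and 1248 in SP2 and 1202, 1189 and 1414 in SP3, higher in 3 of 3 pairs (adjusted p = 0.139). Chl1 was also the 1 call among 32 integrin, adhesion and guidance genes.

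The remaining genes of largest fall have diverse roles. Eno3, the enolase isoform of muscle, read 308, 276 and 312 in SP2 and 103, 145 and 124 in SP3 and was the 1 call among 17 glycolytic genes (log2 fold change -1.18, SE 0.14, adjusted p = 0.00523). Nrgn, which encodes the calmodulin-binding protein neurogranin, went from 164, 113 and 210.1 to 32.3, 68.3 and 66.2 (log2 fold change -1.32, SE 0.20, adjusted p = 0.0245). Trpm1, a cation channel gene, went from 217, 234 and 198 to 77, 112 and 90.6 (log2 fold change -1.10, SE 0.12, adjusted p = 0.00328). This probe set kept its call without each of the 12 arrays. On the probe sets given, Eno3, Nrgn and Trpm1 had no overlapping groups. Of 4 Trpm1 probe sets, 3 were lower in SP3 and 1 was called.

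Akr1c18, a steroid dehydrogenase gene, fell from 161, 181 and 346 to 57.9, 77.6 and 94.9. Asb2, a subunit of a ubiquitin ligase, fell from 128, 149 and 96.8 to 41.7, 58.6 and 40.8. Sytl2, an effector of vesicle transport, fell from 421, 675 and 342 to 165, 233 and 187. These 3 fell in every pair without overlap, and so did C1qtnf12. C1qtnf12, which encodes a secreted protein, fell from 287, 245 and 598 to 96.3, 140.2 and 207. Their log2 fold changes were -1.35, -1.15, -1.19 and -1.21 in that order, with adjusted p between 0.0137 and 0.0468. All 4 C1qtnf12 probe sets were lower in SP3 and 1 was called.

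Bcl2l11, which encodes the death inducer BIM of negative selection, gave different readings by probe set. One fell from 313, 379.8 and 223 to 108, 135 and 131 without overlap (log2 fold change -1.16, SE 0.16, adjusted p = 0.0167). Another fell from 607, 852 and 1653 to 260.3, 377 and 1228, with replicate 3 high in both subsets (adjusted p = 0.0467). The brightest, at 1375, 1938 and 2583 in SP2 and 539, 672 and 2168 in SP3, was not called (log2 fold change -1.03, adjusted p = 0.111), so the apoptosis list of 20 genes, read by the brightest, gave 0 calls and a median of -0.01. Ccnd2, which encodes a D-type cyclin, was split in the same way. Its probe set at 349, 369.8 and 330.1 in SP2 and 155, 130.3 and 237 in SP3 fell (log2 fold change -0.98, adjusted p = 0.0361), and the brightest, at 3656, 3571 and 3534 in SP2 and 2181, 2282 and 2954 in SP3, did not pass with an adjusted p of 0.128.

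Outside the 15 genes of largest fall, 3 more were singled out after their values were seen, for their immune roles. Il21, the helper cytokine gene, was dim and fell from 40.5, 70.8 and 29.5 to 15.2, 23.5 and 12.1 (adjusted p = 0.0426). P2rx7, an ATP-gated channel gene, fell from 67, 105 and 37.5 to 33.1, 52.6 and 16.9, with groups that overlapped and nearly equal differences in the pairs (log2 fold change -0.76, adjusted p = 0.0183). Itm2a, a membrane protein gene induced in positive selection, fell from 7035, 9350.5 and 2002 to 3647, 4994 and 1261, where replicate 3 was far lower in both subsets (adjusted p = 0.046).

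Genes of thymic egress made up a first group that rose. S1pr1, which encodes the receptor that guides thymocytes out, read 169, 137 and 268 in SP2 and 583, 487 and 744 in SP3. The lowest SP3 array was above the highest SP2 array (log2 fold change 1.61, SE 0.25, adjusted p = 0.0303 with the block, unadjusted p = 0.000122 without it). Its pairs differed by 1.69, 1.71 and 1.42 on the log2 scale. With the double positive covariate its log2 fold change was 0.78 and was not called (adjusted p = 0.781 in limma). S1pr4, a related receptor gene, went from 186, 149 and 161 to 314, 286 and 281, again without overlap (log2 fold change 0.77, SE 0.13, adjusted p = 0.0408). These 2 were the calls among 14 genes of sphingosine 1-phosphate receptors, enzymes and transporters, whose median was 0.05. With the covariate S1pr4 stood at 0.52, with the same adjusted p. The calls held in 5 of 12 fits with 1 array left out for S1pr1 and 3 of 12 for S1pr4.

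Klf3, a Krüppel-like repressor gene, read 205, 163 and 294 in SP2 and 425, 411 and 624 in SP3 (log2 fold change 1.10, SE 0.16, adjusted p = 0.0167), and a second probe set rose by 0.97. Rflnb, which encodes the filamin-binding protein refilin B, rose from 63.3, 40.7 and 60.5 to 141, 166 and 184 (log2 fold change 1.35, SE 0.19, adjusted p = 0.0165). On these probe sets SP3 arrays were above all SP2 arrays for both genes. The second Klf3 probe set differed by 0.87, 1.50 and 0.55 in replicates 1, 2 and 3. All 7 Klf3 probe sets were higher in SP3 and 2 were called. With the double positive covariate the 2 genes stood at 0.73 and 0.90, without a call. Klf2, the activator of S1pr1, was higher in each pair at 550.5, 424 and 939 in SP2 and 787, 1092 and 1208 in SP3, but the groups overlapped and it was not called (log2 fold change 0.73, SE 0.17, adjusted p = 0.12). Foxo1, which acts above Klf2, read 707, 675 and 1096 in SP2 and 689, 924 and 1312 in SP3 and was higher in 2 of 3 pairs (adjusted p = 0.713).

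The promoters of Klf3 and Rflnb are shown as those of 2 genes that rose together with S1pr1, with the same 2 motifs in capitals. The windows are chr5:64803271-64803570, plus strand, for Klf3 and chr11:76027733-76028032, minus strand, for Rflnb, on GRCm38.p6.
Klf3: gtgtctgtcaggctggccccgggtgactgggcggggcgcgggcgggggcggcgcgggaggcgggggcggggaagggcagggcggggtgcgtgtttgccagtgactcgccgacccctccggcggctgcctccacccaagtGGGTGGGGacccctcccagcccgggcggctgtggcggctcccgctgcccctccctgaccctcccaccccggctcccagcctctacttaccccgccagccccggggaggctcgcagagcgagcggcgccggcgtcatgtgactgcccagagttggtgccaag
Rflnb: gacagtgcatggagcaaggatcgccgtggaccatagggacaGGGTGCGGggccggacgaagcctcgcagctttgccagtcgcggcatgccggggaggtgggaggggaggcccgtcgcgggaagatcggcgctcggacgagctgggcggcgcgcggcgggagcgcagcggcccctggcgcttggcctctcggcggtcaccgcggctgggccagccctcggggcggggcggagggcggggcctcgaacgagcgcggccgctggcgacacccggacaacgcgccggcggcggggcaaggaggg
Each holds 1 Krüppel-like type match, from 111 to 104 bases before the start in Klf3 and from 209 to 202 in Rflnb, and neither holds an AP-1 match. Among genes that rose, 18 of the 26 had an entry, of which 4 (22.2%) held a Krüppel-like type match and 2 (11.1%) an AP-1 match.

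Of 27 measured egress and naive T cell genes, 4 rose, 0 fell and 20 were above 0. The median log2 fold change was 0.45 by the brightest probe set of each gene and 0.28 by the mean of all its probe sets. The sums of double positive markers and of activated or memory T cell markers were higher in SP3 as well, as given above. Without the block 11 were higher and 2 lower at an unadjusted p under 0.05, against 1.76% and 1.65% of all genes. SP3 arrays were all above SP2 arrays for 11, against 3.3%. This list too was chosen with earlier results of these data known, so these shares are not separate support. The 2 lower were Ccr7 and Il7r. Il7r, the receptor chain for the survival cytokine interleukin 7, read 2105, 3974 and 2089 in SP2 and 1160.2, 2010.1 and 1910.4 in SP3 (adjusted p = 0.314). Ms4a4b, a membrane protein gene of naive T cells, read 2431, 1237 and 2981 in SP2 and 3010.4, 3144 and 5561 in SP3. Dapl1 read 50.9, 32.1 and 36.8 in SP2 and 66.7, 65.4 and 148 in SP3. Both were higher in 3 of 3 pairs, with adjusted p of 0.156 and 0.253. The list medians in the single pairs were 0.09, 0.45 and 0.26. Igfbp4, a binding protein gene for insulin-like growth factors, rose on a probe set that may cross-hybridize, from 1381, 1294 and 1561 to 1993, 2492 and 2644 (log2 fold change 0.74, adjusted p = 0.046). Its other probe set, which represents it on the list, gave 0.70 at an adjusted p of 0.0638.

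**Figure D3:**
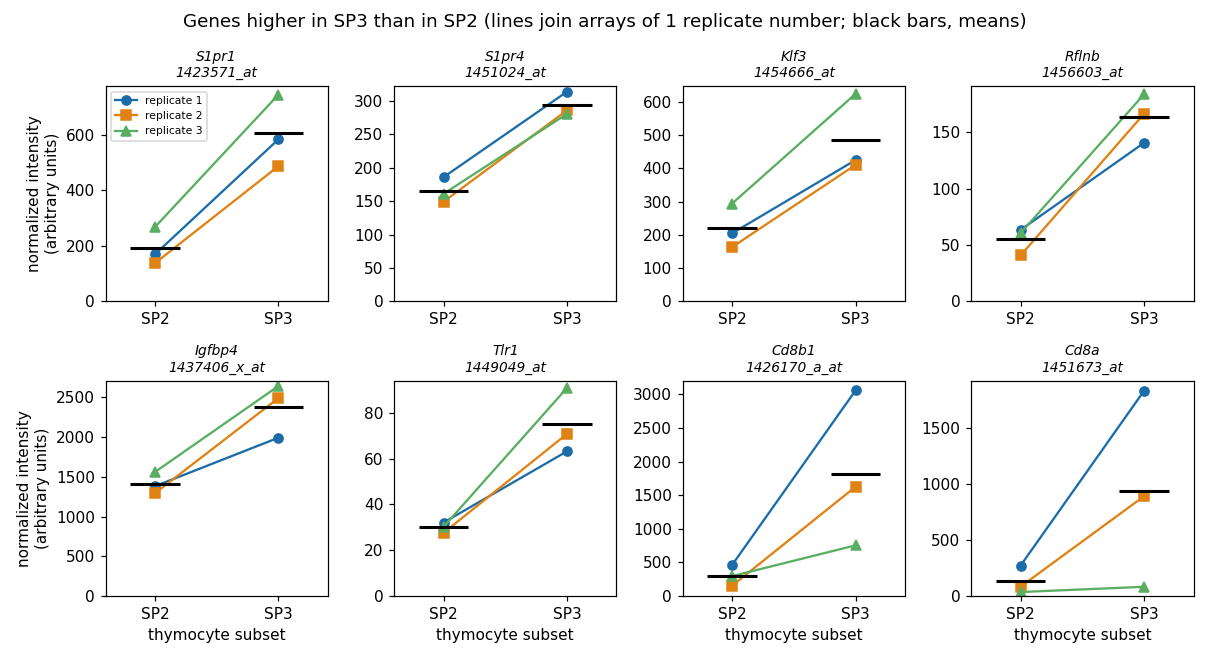
Normalized intensity (arbitrary units, axis from 0) of 8 genes that rose, drawn as for the genes that fell. For S1pr1, S1pr4, Klf3, Rflnb, Igfbp4 and Tlr1 all 3 lines climb and SP3 lies above all SP2 arrays, while for Cd8b1 and Cd8a replicates 1 and 2 climb far more than replicate 3.

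Genes of the double positive stage made up the second group that rose, and they had the widest folds. Cd8b1, a chain of the coreceptor that the gate excluded, read 459.5, 150.2 and 294 in SP2 and 3060.1, 1626 and 753 in SP3 (log2 fold change 2.44, SE 0.40, adjusted p = 0.0347). Cd8a, the other chain, read 272, 82.9 and 34.7 in SP2 and 1838, 893 and 81.5 in SP3 on its brightest probe set, where the groups overlapped through replicate 3 (log2 fold change 2.28, SE 0.41, adjusted p = 0.0468). The other 3 Cd8a probe sets that were called rose by 1.57 to 2.37. Endou, an endoribonuclease gene of double positive cells, went from 115, 21.8 and 108 to 1058, 786 and 297, the largest rise of a named gene (log2 fold change 2.92, SE 0.51, adjusted p = 0.0426). Arpp21, another gene of that stage, went from 48.3, 23.3 and 18 to 321, 286 and 39.9. Nebl, a nebulin relative that binds actin, went from 30.3, 14.6 and 19.8 to 204, 176 and 52. Both rose with adjusted p of 0.0311 and 0.0355. For Endou, Arpp21 and Nebl the brightest probe set was not called, with adjusted p from 0.0611 to 0.0836. Of the 19 markers, 3 rose on their brightest probe set, which were Cd8a, Cd8b1 and Tdrd5, and 12 were higher and 0 lower at an unadjusted p under 0.05 without the block. The medians in the single pairs were 2.16, 2.05 and 0.53.

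Several other genes that rose had the same profile of replicates, wide in replicates 1 and 2 and narrow in replicate 3. Syt13, a synaptotagmin gene, went from 32, 21 and 29.9 to 202, 157 and 65.6 (log2 fold change 1.75, SE 0.25, adjusted p = 0.0184). Both of its 2 probe sets were higher in SP3 and 1 was called. H2-Q2, a nonclassical class I gene with near-identical relatives, so that its reading is uncertain, went from 126, 94.8 and 57.7 to 377, 275 and 87.4 (adjusted p = 0.0361). Arsi, an arylsulfatase gene, rose from 87.4, 47.3 and 51.5 to 277, 163 and 81.8. Its groups overlapped, as those of H2-Q2 did. A930003A15Rik rose from 15.3, 11.1 and 14.2 to 90.01, 78.8 and 35.2. In replicate 3, the pairs of these 4 genes differed by 0.49 to 0.83 on the log2 scale. With the double positive covariate their log2 fold changes were 0.56, 0.39, 0.25 and 0.74 in the order named.

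In 3 further genes the replicate 3 pair differed about as much as the others. Tlr1, a Toll-like receptor gene, went from 32.1, 27.6 and 30.2 to 63.2, 70.9 and 91 (log2 fold change 0.98, SE 0.16, adjusted p = 0.0347). Zbtb16, which encodes PLZF, the factor of innate-like T cells, went from 14.6, 11.9 and 15.6 to 40.02, 81.3 and 75.9 on a probe set that may cross-hybridize (log2 fold change 1.40, SE 0.22, adjusted p = 0.0311). The probe set that represents Zbtb16 was not called, at 31.7, 28.6 and 21.5 in SP2 and 61.4, 121 and 59.1 in SP3 (adjusted p = 0.101). Cdc25b, a phosphatase gene that activates cyclin-dependent kinases, rose from 131, 148 and 76.3 to 302, 293 and 153 (log2 fold change 0.97, adjusted p = 0.0145). The lowest SP3 array was above the highest SP2 array for all 3 genes.

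Marker lists of other cells were read beside these. The sort took CD4+CD8-NK1.1- cells, and the study checked the sorted cells for TCRβ. Neither step measured what other RNA the arrays held. NKT and innate-like markers gave 0 calls among 26, with 19 above 0, a median of 0.22 and sums of 2712 to 3665 in SP2 and 3641 to 4471 in SP3. Il18r1, a receptor chain gene on that list, read 48, 16.6 and 43.1 in SP2 and 101, 174 and 184 in SP3 without overlap (adjusted p = 0.0656). Activated or memory T cell markers gave 0 calls among 17, with 5 higher and 1 lower at an unadjusted p under 0.05 without the block. Anxa2, an annexin gene, led them at 289, 105 and 209 in SP2 and 1422, 899 and 481 in SP3 (log2 fold change 2.10, adjusted p = 0.0601), while Cd44, the gene of the defining surface marker, was lower at 262, 349 and 238 in SP2 and 147, 201 and 208 in SP3 (adjusted p = 0.192). B cell markers summed to 1239 to 2789 in SP2 and 2216 to 3438 in SP3, myeloid and dendritic markers to 1883 to 3226 and 2791 to 3616, and erythroid markers to 67.7 to 74.8 and 59.4 to 88.4. These 3 lists, the epithelial and the γδ T cell lists gave 0 calls. The part of these lists in the results was not tested.

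Cell cycle and replication genes leaned upward without any call. Of 27 measured, 24 were above 0, with a median of 0.36, and the medians of the single pairs were 0.89, 0.22 and 0.06 in the order of replicates. Mki67, the proliferation marker gene, read 1234, 1342 and 678 in SP2 and 2493, 2028 and 859 in SP3. Ccnb2, a mitotic cyclin gene, read 367, 211 and 139.8 in SP2 and 1136, 552 and 212 in SP3. Both were highest in SP3 replicates 1 and 2, as the double positive markers were, and neither was called (adjusted p = 0.417 and 0.407).

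The other lists gave few calls. The CD28 family and other inhibitory receptors had 10 of 13 below 0, a median of -0.24 and 0 calls, with Cd200 at 159.9, 153 and 191 in SP2 and 67.8, 103 and 155 in SP3 having the smallest p (adjusted p = 0.114). CD3 chains and proximal TCR signalling genes had 12 of 15 below 0, a median of -0.25 (-0.12 by the mean of all probe sets of each gene) and 0 calls. Cd2, an adhesion receptor gene on that list, read 4216, 3813 and 3807 in SP2 and 2388, 2779.7 and 3045 in SP3 without overlap (adjusted p = 0.164). Calcineurin, NFAT and calcium genes gave 1 call among 23, which was Nrgn. Cytokine receptors gave 0 calls among 26, where Ifngr1, the interferon γ receptor gene, read 324, 302 and 327 in SP2 and 821, 619.5 and 465 in SP3 and lay just outside the threshold (log2 fold change 0.93, adjusted p = 0.0505). JAK, STAT and SOCS genes, CD4 lineage factors, class I presentation, interferon response, cholesterol and housekeeping genes gave 0 calls among 21, 22, 17, 29, 17 and 10. Their medians lay between -0.12 and 0.10. Over all lists, 18 genes were called with the block and 0 without it, while 0.11% of all genes rose and 0.17% fell by their brightest probe set. Lists and members were chosen with earlier results of these data known, so the 18 calls are not separate support.

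**Figure D4:**
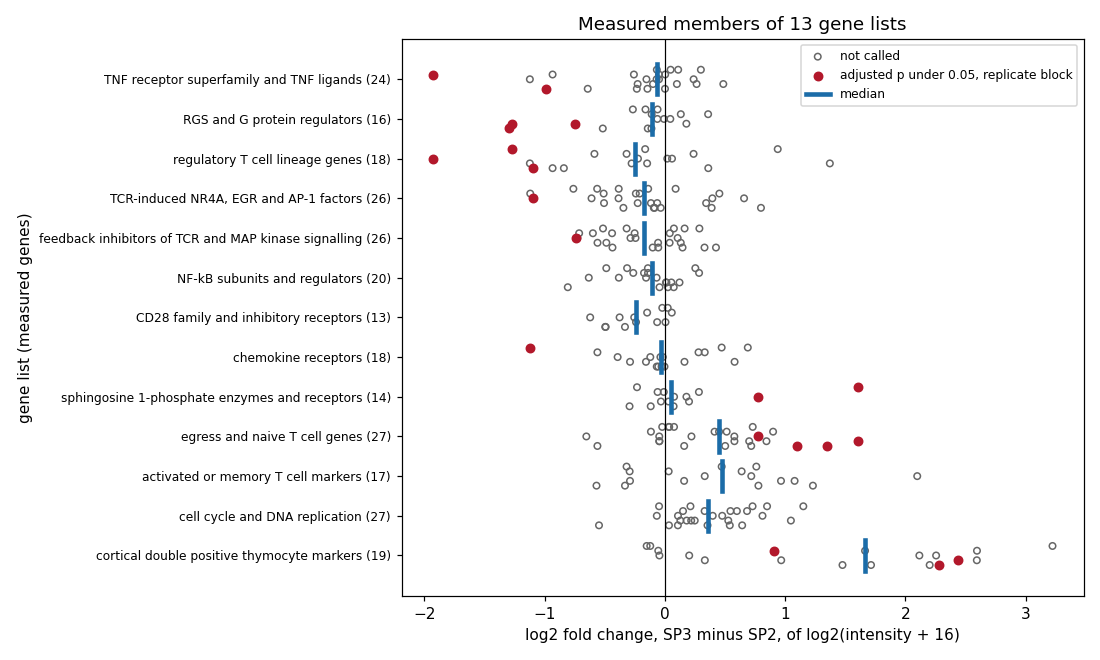
Log2 fold change, SP3 minus SP2, of the measured members of 13 gene lists, 1 circle per gene by its brightest probe set, with red circles for genes called with the replicate block and blue bars for list medians. Egress genes and double positive markers lie to the right of 0, with medians of 0.45 and 1.67, while TNF receptor, RGS and regulatory T cell lists have single genes far to the left and medians of -0.07, -0.11 and -0.25.

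The change was also set against those of the steps on either side. The step difference, the SP3 minus SP2 change less the SP2 minus SP1 change before it, was called for 27 of 45037 probe sets (0.06%) with the block. That against the SP4 minus SP3 change after it was called for 66 (0.147%), and both counts were 0 without the block. These contrasts share the SP2 or SP3 arrays with the comparison itself, so their values stand beside it and not as separate support. Tnfrsf9 read 461, 466 and 377 in SP1 and 288, 359 and 222 in SP4, so its SP2 arrays were above every other array. Its step differences were -2.76 against the step before (adjusted p = 0.00062) and -2.45 against the step after (adjusted p = 0.00159). Rgs16 read 58.4, 62.7 and 49.5 in SP1 and 58.4, 82 and 57.7 in SP4, with step differences of -1.82 and -2.28 (adjusted p = 0.0027 and 0.00125). The brighter Rgs16 probe set gave -1.29 and -1.05, and neither was called (adjusted p = 0.054 and 0.0901). Ikzf2 on its brightest probe set read 1116, 1256 and 1252 in SP1 and 972, 1346 and 1071 in SP4. Trpm1 read 116, 144 and 129 in SP1 and 103, 147 and 99.2 in SP4. Both had both step differences called. On the probe sets given for these 4 genes SP2 was the peak and SP3 the trough of the 4 subset means. The summed double positive markers were at 13473, 14223 and 6878 in SP1 and 7205, 6760 and 5164 in SP4. With the SP2 and SP3 sums given above, this sum was lowest in SP2 and highest in SP3 in replicate 1. In replicate 2 it was lowest in SP2 and highest in SP1, and in replicate 3 lowest in SP4 and highest in SP3. Its part in the step differences was not tested.

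**Figure D5:**
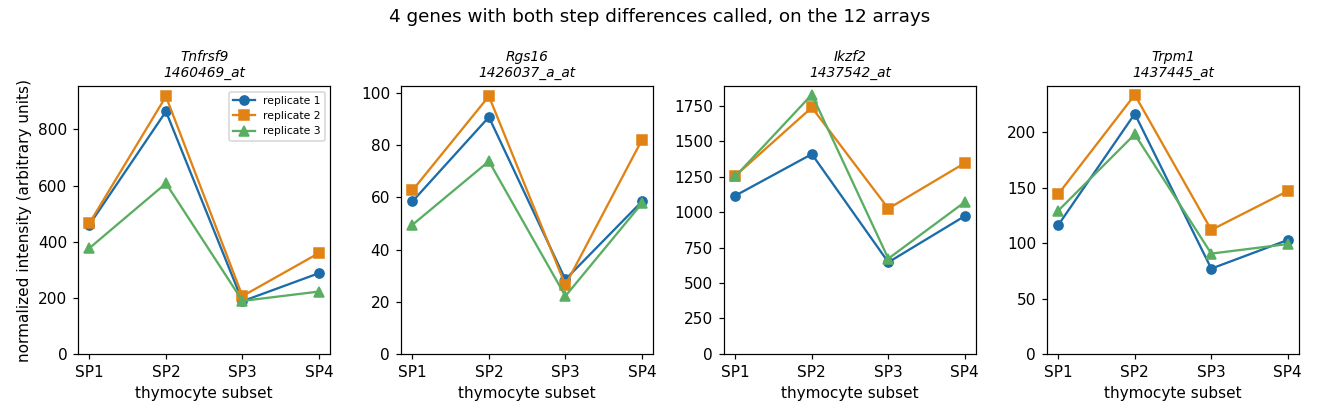
Normalized intensity (arbitrary units, axis from 0) of Tnfrsf9, Rgs16, Ikzf2 and Trpm1, 1 probe set each, on the 12 arrays from SP1 to SP4. Lines join arrays of 1 replicate number. In all 4 panels each line is highest at SP2 and lowest at SP3.

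Of the 59 probe sets that fell, 18 were called against the step before, 14 against the step after and 11 against both. Cyth3, which encodes an exchange factor for ARF GTPases and was singled out after its values were seen, was among the 11, at -1.36 and -1.24 (adjusted p = 0.0396 and 0.0423). Akr1c18, Gpr83 and Eno3 were called against the step before, with differences of -2.23, -2.14 and -1.93 and adjusted p of 0.0231, 0.0297 and 0.0105. Their differences against the step after, -0.92, -1.47 and -1.34, did not pass. Ccnd2 was called against the step after alone, at -1.66 (adjusted p = 0.0477). Chl1 and Asb2 were called against neither. The mean intensity of Chl1 was 263, 279, 97.02 and 41.1 from SP1 to SP4, and that of Asb2 was 151, 125, 47.05 and 28.7, so both went on falling in mean after SP3.

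The genes that rose parted in the same way. None of S1pr1, S1pr4, Klf3, Rflnb and Tlr1 had a called step difference. S1pr1 read 185, 178 and 96.4 in SP1 and 1120.00, 845 and 933 in SP4. Tlr1 read 24.6, 35 and 16.9 in SP1 and 201, 190.3 and 216 in SP4, so that the SP4 arrays were the highest for both. Cd8a, by contrast, read 765, 1083 and 55.5 in SP1 and 358, 247 and 16.3 in SP4, and its difference against the step after was 4.18 (adjusted p = 0.0468). Syt13 and H2-Q2 were called against both steps. Of the 59 probe sets that fell, 52 had their highest subset mean in SP2 and 40 of these their lowest in SP3, where 28.0% of all probe sets have SP2 highest and 19.9% SP3 lowest. Of the 40 that rose, 23 had SP3 highest and 11 climbed at every step from SP1 to SP4, against 22.3% and 6.33% of all. The choice of called probe sets fixes part of these orders, since SP2 and SP3 enter both. The part of the double positive sums, given above for all 4 subsets, in these orders was not tested.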

How the data were processed

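RNA of 12 sorted populations, 3 biological replicates of each of 4 subsets, was measured on Affymetrix 430 2.0 mouse arrays. The deposited values are linear normalized intensity values, which the authors made from the scans: the methods name RMA and the submitters' notes name MAS5, with versions not given in the sources used here. The number of arrays limits the precision. Log2(intensity + 16) was modelled by limma (version 3.58.1, under R version 4.3.3) with a mean per subset, a mean-variance trend and all 12 arrays. The design without a block, with 8 residual degrees of freedom, is unpaired, as the test of the methods is. SAM itself was not run. By SAM with a fold threshold, the study lists genes both increased and decreased in SP3 against SP2. The count of the unblocked limma fit therefore does not stand for that test. The second fit adds the replicate number as a block, with 6 degrees of freedom. In the study's own per-array columns, 204 to 724 values of each subset and named repeat equalled the deposited columns of 1 replicate number within a relative tolerance of 1e-04, and at most 2 values a repeat, in SP2, had no single match. Deviations of same-numbered arrays correlated between 0.279 and 0.883, and those of different-numbered arrays reached 0.729, for SP2 replicate 2 with SP4 replicate 1. P-values were adjusted over all 45037 probe sets by the Benjamini-Hochberg method. By the array annotation, 34945 probe sets name 1 gene, 932 several and 9160 none here. The brightest probe set by mean, not ending in _x_at where another existed, stood for each of 18193 genes. The text names the sort markers, the 15 higher and 15 lower genes of largest fold in the blocked fit by their probe set of largest fold, called list members or up to 5 of smallest p, and listed genes the study names. 1 gene is not reported here. Members and lists were chosen with earlier results of these data known. Fits were tested on simulated data. Promoters are RefSeq's on GRCm38.p6, with 52 of 68 called genes matched. Alternatives were offsets of 1 and 64, a filter on mean intensity over 100, quantile normalization, no trend, only the 6 arrays compared, a random block, a double positive marker covariate and arrays left out.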

Additional observations from a re-analysis of the deposited data

How the results depend on the processing

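Each of the 99 probe sets called with the replicate block kept its sign in the 12 fits with 1 array left out, while counts of calls changed. Their selection largely fixed that sign. The 0 probe sets called by limma without the block became 2 with an offset of 1, 3 with the intensity filter, 2 with quantile normalization, 3 without the trend, 115 with replicates 1 and 2 alone and 99 with the replicate block, and lay between 0 and 2 with 1 array left out. The 99 called with the replicate block became 156 with an offset of 1, 47 with an offset of 64, 32 without the trend, 30 with a random block, 171 with replicates 1 and 2 alone, 0 with the double positive marker covariate and 0 without the block, and lay between 9 and 207 with 1 array left out. The 40 that rose became 70, 14, 6, 10, 117, 0 and 0 in the same order, and between 0 and 115 with 1 array left out. The 59 that fell became 33 with an offset of 64, 26 without the trend, 20 with a random block, 0 with the covariate and 0 without the block, and between 9 and 105 with 1 array left out. With the intensity filter 127 were called, with quantile normalization 94 and with only the 6 arrays 82, of which 50 were shared with the 99. The step differences went from 0 and 0 without the block to 27 and 66 with the replicate block, and called list members from 0 to 18. The cause of these changes was not tested. Of 32 lists, 1 changed the sign of its median with the mean of all probe sets in place of the brightest, which was that of cytokine receptors (-0.01 to 0.0032). In that setting the medians of the CD3 and proximal TCR genes went from -0.25 to -0.12, JAK, STAT and SOCS genes from -0.11 to -0.02, CD4 lineage factors from -0.12 to -0.03, regulatory T cell genes from -0.25 to -0.19, egress and naive genes from 0.45 to 0.28, activated or memory markers from 0.47 to 0.29 and sphingosine 1-phosphate genes from 0.05 to 0.01. Every p is limited by the 3 arrays a subset has.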
